A study of Cicer arietinum with 24 samples.

Results

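The comparison set whole seeds of seed stage 6 (S6) against whole seeds of seed stage 4 (S4) in Himchana 1, a small-seeded cultivar of chickpea (Cicer arietinum). A gene entered when its level was 1 FPKM or more at S4 or at S6, where FPKM counts sequenced fragments relative to transcript length and to all mapped fragments. This gave 14753 of the 25111 genes that had a locus of their own in the files. The study profiled RNA of 7 seed stages and of leaves with 3 biological replicates each, 24 samples in all, of which 6 belong to S4 and S6. Both groups came from field-grown plants of the same cultivar, and the labels give no treatment and no mutation for either. The study describes S3 as late-embryogenesis, S5 as mid-maturation and S7 as late-maturation, and gives no such name to S4 and S6, which lie on both sides of S5. The deposited value of a stage is the authors' merged value of its 3 replicates, so every level stands without an error and no difference below was tested.

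Legume seeds first form the embryo by cell division and patterning, then enlarge and fill the cotyledons with storage protein and starch, and at last lose water and become dormant. Cell division, cell expansion and storage are largely carried out by different sets of genes, and genes for protection against drying are switched on late. A whole seed holds seed coat and embryo together, and endosperm while it lasts. The study states that chickpea endosperm is fully resorbed before S5, so the tissues of S4 and S6 seeds may differ. Fewer cells of a type and less RNA per cell cannot be told apart in these values. The gene identifiers of the files are not paired with names, and 0 of the 25111 matched the 29938 RefSeq genes, so the tissue label was not checked against marker genes.

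The levels spread out between the stages. At S4, 68 genes stood at 1000 FPKM or more and held 24.9% of the summed FPKM of all genes, and at S6 there were 301 such genes with 63.3% of the sum. At the low end, 6439 genes were listed at 0 at S4 and 8615 at S6. The 75th percentile over loci was nearly the same, 11.3 FPKM at S4 and 10.8 at S6, while the summed FPKM of the genes differed by 1.61 on the log2 scale. A sum of FPKM is not a number of fragments, and the depth of the libraries is unknown.

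Of the 14753 genes, 4577 (31%) had a level at S6 of at least 2 times that at S4, and 4773 (32.4%) showed the opposite, with 1 added to each FPKM value before log2 was taken. Together these were 9350 genes (63.4%), and 5403 genes (36.6%) stayed within 2-fold. The median change was 0.01 on the log2 scale, with quartiles of -1.42 and 1.34, so that the deposited values spread to both sides in nearly equal numbers. This balance depended on the minimum and on the scaling. With a minimum of 10 FPKM in either stage there were 4011 higher and 2537 lower genes, and with 1 FPKM in both stages 4038 and 2212. When both stages were scaled to the same sum, as TPM does, the counts became 1546 higher and 8809 lower, with a shift of the median gene of -1.33. With the median ratio of genes expressed in every library the counts were 3355 and 5794 (shift -0.44), and with the upper quartile 2881 and 6463 (shift -0.65). Counted relative to these shifts, the higher and lower genes numbered 4144 and 4050 for the same sum, 4476 and 4416 for the median ratio and 4458 and 4340 for the upper quartile. Taking the median change away puts as many genes above 0 as below. The closeness of these counts thus follows largely from that step and does not speak for a balance. Changes below are those of the deposited values. Each of the 3 scalings moves all genes down together, so where the sign of a gene or list turns under a scaling, its value relative to the shift of the median gene is given beside it. A scaling multiplies each stage by 1 factor, and taking the shift away largely removes that factor again. The relative value therefore lies near the deposited change, apart from the effect of the added 1. It gives a gene's place among all genes and is no separate support for the direction.

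Large differences were common in both directions. At least 4-fold differences were found for 2236 higher and 2507 lower genes, and at least 16-fold differences for 474 and 582. Beyond 64-fold, the higher genes outnumbered the lower ones, 168 to 132. Near the 2-fold line, 168 higher genes lay between 1.9-fold and 2-fold and 193 between 2-fold and 2.1-fold, and for lower genes these numbers were 184 and 212. Of the 125 genes whose higher level was between 1 and 1.1 FPKM, 32 were 2-fold different, with a median absolute change of 0.82. The 158 genes just under the minimum, between 0.9 and 1 FPKM, had a median absolute change of 0.79, and with the added 1 none of them could reach 2-fold.

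**Figure D1:**
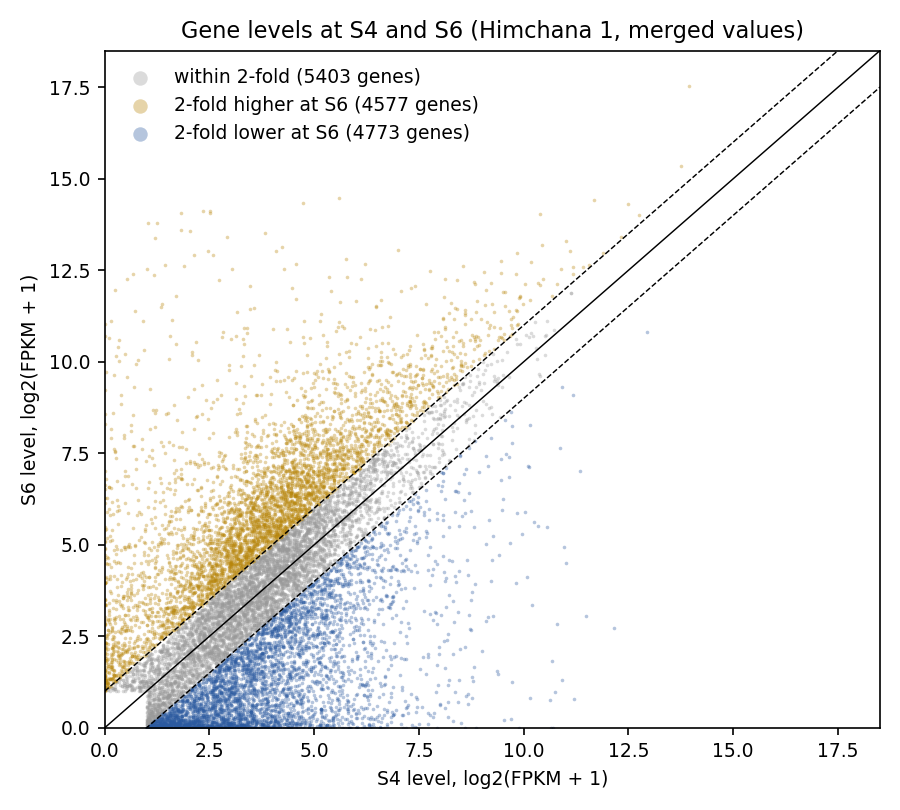
Level of each of the 14753 genes at S4 (x axis) and S6 (y axis), both as log2(FPKM + 1), 1 point per gene, with dashed lines at a 2-fold difference. Of the 4577 genes above the upper line, 2236 are at least 4-fold higher at S6, and many of the 4773 genes under the lower line lie near 0 at S6.

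The lower genes often reached very low levels at S6. There were 754 genes at 10 FPKM or more at S4 and below 1 FPKM at S6, of which 117 were listed at 0 at S6. The opposite course, from below 1 FPKM at S4 to 10 FPKM or more at S6, was seen in 196 genes, 21 of them listed at 0 at S4. A value of 0 in such files can be a failed estimate. Of the genes at 0 at S6, 3 stood at 10 FPKM or more at both S5 and S7, and of those at 0 at S4, 5 stood at 10 FPKM or more at both S3 and S5.

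The most abundant genes of S6 were mostly genes that had been lower at S4. Of the 301 genes at 1000 FPKM or more at S6, 278 were at least 2-fold higher than at S4 and 1 was at least 2-fold lower. Over all genes these shares were 31% and 32.4%. Choosing genes by a high S6 level favours the higher ones, and these counts were not repeated under the scalings. Of these 301 genes, 119 had been below 100 FPKM at S4 and 57 below 10 FPKM. The 68 genes at 1000 FPKM or more at S4 divided evenly, with 25 higher and 27 lower at S6, and 12 of them were below 10 FPKM at S6. By level at S4, 1574 genes were higher and 2236 lower among the 6246 genes at 1 to 10 FPKM, and 355 were higher and 324 lower among the 984 genes at 100 to 1000 FPKM.

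Among genes at 1 FPKM or more at both stages, the largest differences belonged to genes that no source used here names. Ca_09330 stood at 1.04 FPKM at S4, 332 at S5, 14288 at S6 and 8358 at S7, a change of 12.77 from S4 to S6. Ca_17730 went from 1.37 FPKM at S4 through 614 at S5 to 14198 at S6, a change of 12.55. Both were at 0.459 FPKM or less in the leaf, and neither exceeded 1.14 FPKM from S1 to S3. In the other direction, Ca_03416 had 1939 FPKM at S4, 3004 at S5 and 1.46 at S6, a change of -9.62. Ca_02568 had 4561 FPKM at S4, 5569 at S5 and 5.68 at S6, a change of -9.42. These lower genes were thus still at or above their S4 level at S5, whereas the higher genes had already left theirs.

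Before S4 the median levels of the groups lay close together. The median level of the genes higher at S6 was 12.6 FPKM at S1, 12.2 at S2, 11.9 at S3 and 11.3 at S4, then 16.0 at S5, 60.6 at S6 and 66.8 at S7. For the genes lower at S6 the medians were 9.76 FPKM at S1, 10.7 at S2, 10.8 at S3 and 11.1 at S4, then 7.37 at S5, 0.807 at S6 and 0.536 at S7. The genes within 2-fold had medians of 10.5 FPKM at S1, 10.8 at S3, 10.2 at S5 and 10.8 at S6. The S4 and S6 medians follow from how the genes were chosen, and those of the other stages do not.

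**Figure D2:**
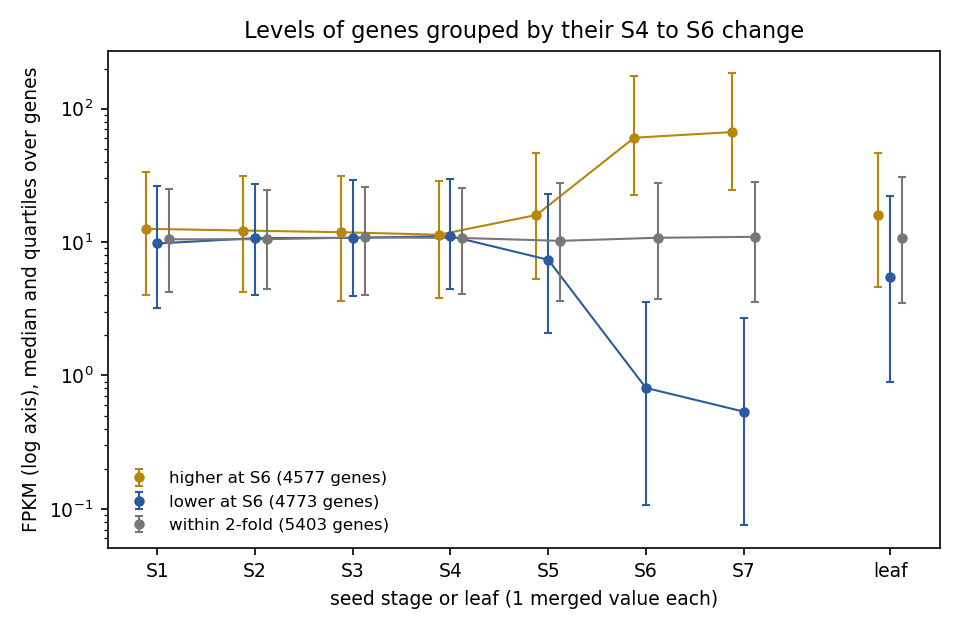
Median FPKM (points) and quartiles over genes (bars) on a log axis in the 7 seed stages and the leaf, for genes at least 2-fold higher at S6 than at S4, at least 2-fold lower, and within 2-fold. The medians of all 3 sets lie between 9.76 and 12.6 FPKM from S1 to S4 and separate from S5 on, to 66.8 and 0.536 FPKM at S7.

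The S3 and S7 values took no part in choosing the genes, and most genes had the same direction there. Over the same 14753 genes, 4566 (30.9%) were at least 2-fold higher at S7 than at S3, 5021 (34%) were lower to this extent, and together these were 9587 (65%). Of the 4577 genes higher at S6 than at S4, 3847 (84.1%) were also 2-fold higher at S7 than at S3, 695 were within 2-fold and 35 (0.765%) were 2-fold lower. Of the 4773 genes lower at S6, 4154 (87%) were also 2-fold lower at S7 than at S3, 601 were within 2-fold and 18 (0.377%) were 2-fold higher. Of the 5403 genes within 2-fold between S4 and S6, 3870 (71.6%) were within 2-fold between S3 and S7, against 5166 (35%) of all 14753.

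In the deposited values, most of the difference between S4 and S6 lay after S5. The counts through S5 were not repeated under the scalings. The summed FPKM of the genes was 652969 at S4, 1.82e+06 at S5 and 1.99e+06 at S6. With all genes kept, scaling to the same sum would thus act mostly on the step before S5. A large part of the S5 sum was the single gene Ca_28211, with 663915 FPKM or 36.5% of it. This gene held 2.43% of the sum at S4 (15887.5 FPKM) and 9.49% at S6 (188664 FPKM). How the scaling would divide between the steps without Ca_28211 was not tested. Between S4 and S5, 3818 of 14722 genes (25.9%) differed at least 2-fold, and between S5 and S6, 8464 of 14236 (59.5%). The neighbouring steps were smaller, with 1140 of 14571 genes (7.82%) between S3 and S4 and 1109 of 12156 (9.12%) between S6 and S7. Steps that meet at a stage share its library, so their counts are given side by side only. At S5, the genes higher at S6 had covered a median of 15.2% of their log2 change and the genes lower at S6 a median of 25.3%. Of the higher genes, 3626 lay nearer to S4 at S5 and 719 nearer to S6. The lower genes were earlier, with 3072 nearer to S4 and 1355 nearer to S6.

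A smaller group did not move in one direction through S5. Among the genes higher at S6, 90 stood at S5 at least 2-fold above both stages and 142 at least 2-fold below both. Among the genes lower at S6, 327 were at least 2-fold above both stages at S5 and 19 below both. The counts of peaks at S5 are not alike in the 2 sets. A peak had to pass S6 in the higher genes but S4 in the lower genes, and S5 lay nearer to S4 in most genes of both sets. When any value above or below both stages was counted, without the 2-fold margin, the numbers were 231 above and 1435 below for the higher genes. For the lower genes they were 1270 above and 188 below.

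The leaf, which took no part in choosing the genes, held more of the higher than of the lower genes. At 10 FPKM or more in the leaf were 2779 of the 4577 higher genes (60.7%), 1845 of the 4773 lower genes (38.7%) and 2775 of the 5403 genes within 2-fold (51.4%), against 7399 of all 14753 (50.2%). Genes below 1 FPKM in the leaf that reached 1 FPKM in a seed stage other than S4 and S6 were 1188 (24.9%) of the lower, 465 (10.2%) of the higher and 489 (9.05%) of the genes within 2-fold.

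Lists of genes for 4 seed processes, cell cycle, differentiation, grain filling and desiccation, were taken from the study, which made them from gene ontology terms and from methylation and expression in another cultivar, the large-seeded JGK 3. A list of cell growth genes came from the comparison of JGK 3 with Himchana 1 at S3 and S5. Most members are there because they were differentially expressed in seeds, so the lists are not a neutral draw of genes for these processes. They also overlap: the cell cycle and differentiation lists share 77 genes (24.2% of the former, 9.94% of the latter), and the differentiation and cell growth lists share 133 (17.2% and 68.2%). The median change of each list stands beside that of all 14753 genes, 0.01.

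**Figure D3:**
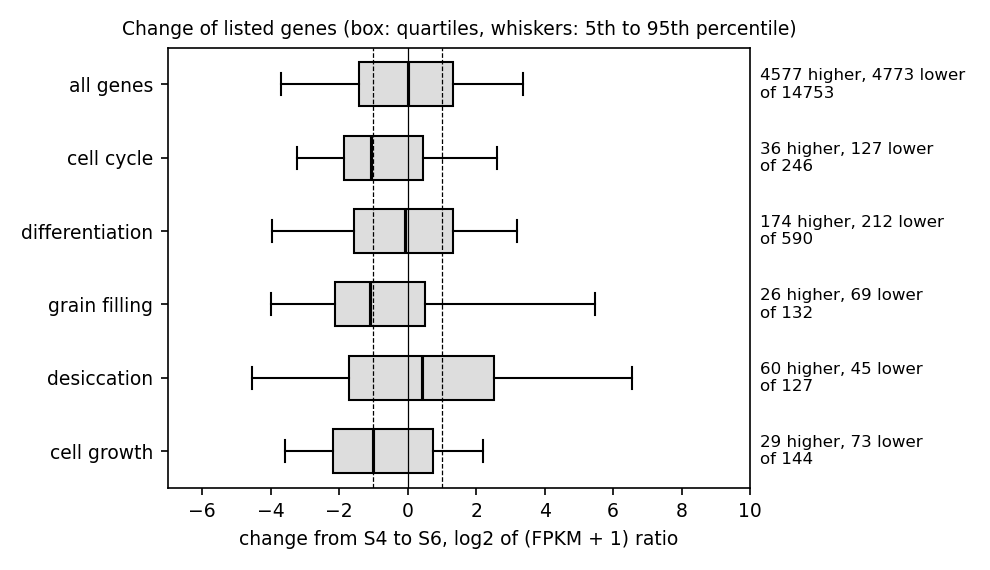
Change from S4 to S6 (log2 of the FPKM + 1 ratio) over all genes and over the genes of 5 lists, with boxes for the quartiles, a line at the median, whiskers from the 5th to the 95th percentile and dashed lines at a 2-fold difference. The cell cycle, grain filling and cell growth lists have medians of -1.06, -1.11 and -1.01, and the desiccation list has 0.41.

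More genes of the cell cycle list were lower than higher at S6. Of 318 listed genes, 246 met the minimum, of which 127 (51.6%) were at least 2-fold lower at S6 and 36 (14.6%) at least 2-fold higher, against 32.4% and 31% of all genes, with a median change of -1.06. Each of the 3 scalings moves all genes down, so this median could only stay below 0 under them. Relative to the shift of the median gene it was -0.48 for the same sum, -0.88 for the median ratio and -0.79 for the upper quartile. The median level of the list was 10.6 FPKM at S1, 7.41 at S4, 4.25 at S5, 2.31 at S6 and 2.43 at S7. Of its genes, 95 (38.6%) had their highest seed level at S1, against 15.1% of all genes. The lower members were already on the way at S5, where they had covered a median of 47.2% of their log2 change, against 25.3% for all lower genes. In S7 against S3, 115 members were lower and 47 higher. The lower count included many low genes: with a minimum of 10 FPKM in either stage 33 members were higher and 39 lower, and with 1 FPKM in both stages 36 and 48. Lower members still outnumbered higher ones there, while all genes leaned the other way, with 4011 higher and 2537 lower, and 4038 and 2212. Among the 37 members that met the minimum and were never classed as differentially expressed in JGK 3, 10 (27%) were lower and 2 (5.41%) higher. Their share of lower genes was thus not above the 32.4% of all genes.

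Single members of the cell cycle list differed widely. The largest increase was that of Ca_14758, with 96.0 FPKM at S4, 136 at S5, 3283 at S6 and 3894 at S7, a change of 5.08. Ca_07489 had 5.52 FPKM at S4, 67.1 at S5 and 134 at S6, and Ca_27517 had 14.0, 21.0 and 256. All 3 were still higher at S7 than at S6. The largest decrease was that of Ca_12649, with 117 FPKM at S4, 79.3 at S5 and 0.271 at S6, a change of -6.54. Ca_02251 had 19.9 FPKM at S4 and 0.198 at S6, a change of -4.12, yet 117 FPKM in the leaf. The third, Ca_09815, which the study annotates as a C3HC4-type zinc finger, had 19.1 FPKM at S4, 3.37 at S5 and 0.0776 at S6, a change of -4.22.

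The replication genes named by the study all had lower levels at S6 than at S4. CDC6 helps to load the minichromosome maintenance proteins, the core of the replicative helicase, onto DNA and so licenses it to be copied, in dividing cells and in those that copy their DNA without dividing. CDC6 (Ca_15618) had 8.03 FPKM at S1, 1.93 at S4, 0.587 at S5 and 0.0572 at S6, a change of -1.47. Of the minichromosome genes, Ca_15408 had 6.82 FPKM at S4 and 0.981 at S6 (-1.98), Ca_12014 had 2.27 and 0.490 (-1.14) and Ca_09549 had 7.45 and 4.07 (-0.74). Thus 3 of the 4 were at least 2-fold lower and Ca_09549 was within 2-fold, beside 32.4% of all genes that were 2-fold lower. Relative to the shift of the median gene all 4 stayed below 0, and 1 (same sum, Ca_15408), 2 (median ratio) and 2 (upper quartile) were at least 2-fold lower. All 4 are on the cell cycle list, and their highest seed level was at S1, where Ca_09549 had 46.5 FPKM and Ca_15408 33.3.

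The differentiation list as a whole lay near the background. Of 775 listed genes, 590 met the minimum, of which 212 (35.9%) were at least 2-fold lower and 174 (29.5%) reached a 2-fold higher level, with a median change of -0.07. With a minimum of 10 FPKM in either stage the order turned to 150 higher and 109 lower, and with 1 FPKM in both stages to 155 and 90. Over all genes it turned in the same way, to 4011 higher and 2537 lower, and to 4038 and 2212. Relative to the shift of the median gene, the list's median was between -0.08 and -0.02 under the 3 scalings. Its single genes included some of the widest differences. Ca_04583 had 2.56 FPKM at S4, 1706 at S5 and 17242 at S6, a change of 12.24. Ca_03732 had 0.598, 83.6 and 5426 FPKM at these stages, a change of 11.73, and Ca_21274 had 6.62, 637 and 10804, a change of 10.47. The 3 genes were each at 0.310 FPKM or less in the leaf, and their S7 levels of 7224, 1272 and 3658 FPKM were below those of S6.

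The lower end of the differentiation list held genes that had been abundant through embryogenesis. Ca_23286 had 631 FPKM at S3, 407 at S4, 24.8 at S5 and 0.576 at S6, a change of -8.02. Ca_11363 had 197 FPKM at S3, 210 at S4, 43.6 at S5 and 0.0807 at S6 (-7.61). Ca_20649 had 246 FPKM at S4, 137 at S5 and 1.25 at S6 (-6.78). The first and second had left most of their S4 level by S5, and the third kept more of it.

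**Figure D4:**
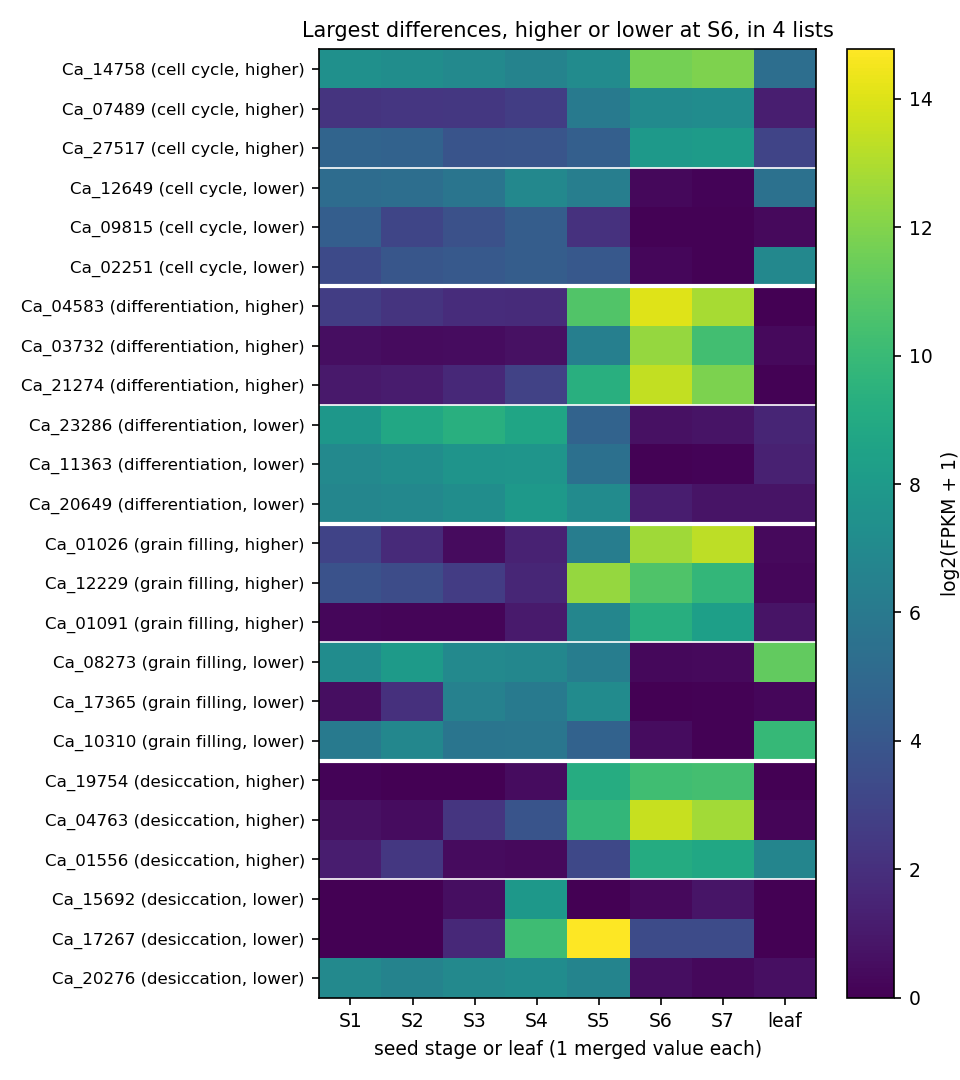
Level as log2(FPKM + 1), by colour, in the 7 seed stages and the leaf for the 3 genes most increased and the 3 most decreased from S4 to S6 in each of 4 process lists. Most increased genes turn bright at S5 or S6, and the decreased genes darken by S6, with Ca_17267 brightest at S5 (27921 FPKM).

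More genes of the grain filling list were lower than higher at S6. Of 163 listed genes, 132 met the minimum, of which 69 (52.3%) were at least 2-fold lower and 26 (19.7%) at least 2-fold higher, against 32.4% and 31% of all genes, with a median change of -1.11. With a minimum of 10 FPKM in either stage 24 were higher and 41 lower, and with 1 FPKM in both stages 20 and 34. All genes leaned the other way with these minimums, 4011 higher and 2537 lower, and 4038 and 2212. The 3 scalings move all genes down, so the list's median could only stay below 0 under them. Relative to the shift it was between -0.96 and -0.76. The list stood higher at S5 than on either side, with a median level of 10.4 FPKM at S4, 12.6 at S5, 6.45 at S6 and 4.80 at S7. Its lower members had a median of 12.1 FPKM at S4, 12.4 at S5 and 0.898 at S6, so they had covered a median of only 15.1% of their log2 change at S5. In S7 against S3, 72 of the 132 were lower and 28 higher, where 34% and 30.9% of all genes were. Among the 14 members that met the minimum and were never classed as differentially expressed in JGK 3, 5 (35.7%) were lower and 1 (7.14%) higher at S6. Their share of lower genes was thus near the 32.4% of all genes.

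The extremes of the grain filling list had different courses through S5. Ca_01026 had 1.69 FPKM at S4, 76.0 at S5, 6390 at S6 and 9929 at S7, a change of 11.21. Ca_12229 peaked at S5, with 1.95 FPKM at S4, 5502 at S5, 1665 at S6 and 877 at S7, a change of 9.14. Ca_01091, which is on the desiccation list too, had 1.11, 109 and 606 FPKM at S4, S5 and S6, a change of 8.17. Among the lower genes, Ca_08273 had 114 FPKM at S4, 75.7 at S5 and 0.232 at S6, a change of -6.54. Ca_10310 had 55.2, 24.0 and 0.423 FPKM, a change of -5.30. These 2 genes were far higher in the leaf, at 2361 and 934 FPKM, than in any seed stage. Ca_17365 was a seed gene, with 64.2 FPKM at S4, 138 at S5, 0.0153 at S6 and 0.198 in the leaf, a change of -6.01.

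The desiccation list had more higher than lower genes in the deposited values. Of 162 listed genes, 127 met the minimum, of which 60 (47.2%) were at least 2-fold higher at S6 and 45 (35.4%) at least 2-fold lower, against 31% and 32.4% of all genes, with a median change of 0.41. The share of lower genes was thus near that of all genes. With a minimum of 1 FPKM in both stages 54 were higher and 27 lower. All genes then leaned the same way, with 4038 higher and 2212 lower. In the list, more higher than lower genes remained with the median ratio, 54 and 48, although the median was -0.08. The order turned with the upper quartile, 50 and 54 (median -0.33), and with the same sum, 30 and 65 (median -0.99). Relative to the shift of the median gene, the list's median was between 0.32 and 0.36, which largely restates the deposited 0.41. Its median level was 21.4 FPKM at S4, 21.8 at S5, 30.3 at S6 and 22.8 at S7, and the upper quartile was 58.9, 98.5, 188 and 186 FPKM. The higher members had started early, with a median of 34.9% of their log2 change covered at S5 against 15.2% of all higher genes. Among the 11 members that met the minimum and were never classed as differentially expressed in JGK 3, 2 were higher and 5 lower, with a median of -0.73.

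The most increased desiccation genes were low before S4. Ca_19754 stood at 0.118 FPKM or less from S1 to S3, at 0.404 at S4, 566 at S5, 1191 at S6 and 1290 at S7, and was listed at 0 in the leaf, a change of 9.73. Ca_04763 had 3.81 FPKM at S3, 13.2 at S4, 862 at S5 and 11790 at S6, a change of 9.69. Ca_01556 had 0.308 FPKM at S4, 8.09 at S5 and 543 at S6, a change of 8.70, and it was the highest of the 3 in the leaf, at 104 FPKM. The first and second were thus well above their S4 level by S5, and the last was still low there.

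The lower desiccation genes included transient ones. Ca_17267 had 2.29 FPKM at S3, 1172 at S4, 27921 at S5, 9.26 at S6 and 9.42 at S7, a change of -6.84. It belongs to the genes with a peak at S5, and in S7 against S3 it was higher (1.66). Ca_15692 had 233 FPKM at S4, was listed at 0 at S1, S2 and S5 and in the leaf, and did not exceed 0.778 FPKM at the other stages, a change of -7.47. This gene shares a joined locus with other identifiers that was not counted for it, so its value is uncertain. Ca_20276 stayed at 95.6 FPKM or more from S1 to S5, with 145 at S4, and had 0.454 FPKM at S6, a change of -6.65.

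More genes of the cell growth list were lower than higher in the deposited values. Of 195 listed genes, 144 met the minimum. Of these, 73 (50.7%) were at least 2-fold lower and 29 (20.1%) at least 2-fold higher, against 32.4% and 31% of all genes. The median change was -1.01. It could only stay below 0 under the 3 scalings, which move all genes down, and it was also below 0 relative to each shift. The counts came close with a minimum of 10 FPKM in either stage, 25 higher and 30 lower, and with 1 FPKM in both stages, 27 and 28. With these minimums more of all genes were higher than lower, 4011 and 2537, and 4038 and 2212. The list's median level was 8.29 FPKM at S4, 7.88 at S5, 3.85 at S6 and 3.44 at S7. It holds both GH3 genes named by the study. Many GH3 enzymes attach amino acids to the hormone auxin and thereby lower its free level. Ca_06937 had 1.28 FPKM at S3, 3.04 at S4, 51.0 at S5, 75.8 at S6 and 101 at S7, a change of 4.25. Ca_23631 had 120 FPKM at S2, 7.99 at S4, 1.53 at S5 and 0.655 at S6, a change of -2.44. The 2 genes of this family thus had opposite directions, which held under the 3 scalings.

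Of the 5 transcription factor genes named by the study, 3 were at least 2-fold lower at S6 and 2 within 2-fold. Over all genes 32.4% were 2-fold lower and 36.6% within 2-fold. The counts of these 5 genes were the same under the 3 scalings and relative to their shifts. The auxin response factor Ca_10748, of a family that binds auxin-responsive promoters, had 53.0 FPKM at S1, 31.9 at S4, 16.2 at S5 and 0.681 at S6, a change of -4.29. The homeobox gene Ca_04491 had 12.5 FPKM at S4, 0.911 at S5 and 4.76 at S6 (-1.22), so it was lowest between the stages compared. The C3HC4-type zinc finger gene Ca_09815, given above, was the other lower one. The type-B response regulator Ca_14780, of the family that carries the cytokinin response, had 2.25 FPKM at S4 and 3.42 at S6, a change of 0.44 that turned negative with the same sum (-0.71) and with the upper quartile (-0.11), and was 0.50 to 0.62 relative to the shifts. The dof zinc finger gene Ca_09238 had 3.29 and 4.48 FPKM, a change of 0.35 that was negative under all 3 scalings and 0.38 to 0.44 relative to their shifts. Both of the latter were low genes, at 5.17 FPKM or less in every seed stage.

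The study places 4 of its named genes in known quantitative trait loci for seed size or weight, the auxin response factor Ca_10748 (-4.29) and the dof gene Ca_09238 (0.35) given above, an F-box gene and a gene with an RNA recognition motif. The F-box gene Ca_01760 had 36.0 FPKM at S4, 21.7 at S5, 94.9 at S6 and 127 at S7, summed over 2 loci, a change of 1.37 that was 0.87 and 0.64 with the median ratio and the upper quartile and -0.20 with the same sum, and 1.13 to 1.31 relative to the shifts. Ca_09981, with an RNA recognition motif, stood at 3.14 FPKM at S4, 1.45 at S5 and 5.12 at S6, a change of 0.57 that was negative with the same sum (-0.70) and with the upper quartile (-0.03), and 0.59 to 0.63 relative to the shifts. Both of the latter were lowest at S5 among S4, S5 and S6.

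Of the DNA methyltransferase genes, MET1 and the chromomethylases were lower at S6. In plants, MET1 keeps methylation at CG sites, chromomethylases (CMT) act at CHG and CHH sites, and DRM enzymes act in RNA-directed methylation. Of the 6 genes annotated by the study, 4 were at least 2-fold lower at S6 than at S4 and 2 within 2-fold, beside 32.4% of all genes that were 2-fold lower. Relative to the shift of the median gene, 2 (same sum, CaCMT1 and CaCMT3), 4 (median ratio) and 3 (upper quartile) were at least 2-fold lower. CaCMT1 (Ca_20580, summed over 2 loci) had 17.5 FPKM at S4, 14.9 at S5 and 0.439 at S6, a change of -3.69. CaCMT3 (Ca_23587) had 31.7 FPKM at S1, 4.72 at S4 and 0.715 at S5 and was listed at 0 at S6. CaMET1 (Ca_18432) had 2.39, 1.18 and 0.324 FPKM at S4, S5 and S6, and CaCMT2 (Ca_17866) had 1.66, 0.482 and 0.0383, both a change of -1.36. CaMET1, CaCMT2 and CaCMT3 were highest at S1, while CaCMT1 was nearly level from S1 to S5.

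The DRM genes did not share this course. CaDRM1 (Ca_12577) had 14.5 FPKM at S4, 7.91 at S5, 9.35 at S6 and 10.7 at S7, a change of -0.59. CaDRM2 (Ca_03062) had 15.7, 21.4, 19.6 and 15.9 FPKM, a change of 0.30 that was negative under all 3 scalings and 0.13 to 0.26 relative to their shifts. Both stayed within 2-fold in the deposited values and relative to the shifts, where CaDRM1 was -0.70 to -0.61. Under the scalings themselves CaDRM1 was at least 2-fold lower, at -2.03 (same sum), -1.05 (median ratio) and -1.27 (upper quartile). CaDRM2 was at -1.20 with the same sum. In the deposited values the DRM genes were the 2 methyltransferase genes above 1 FPKM at S6.

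**Figure D5:**
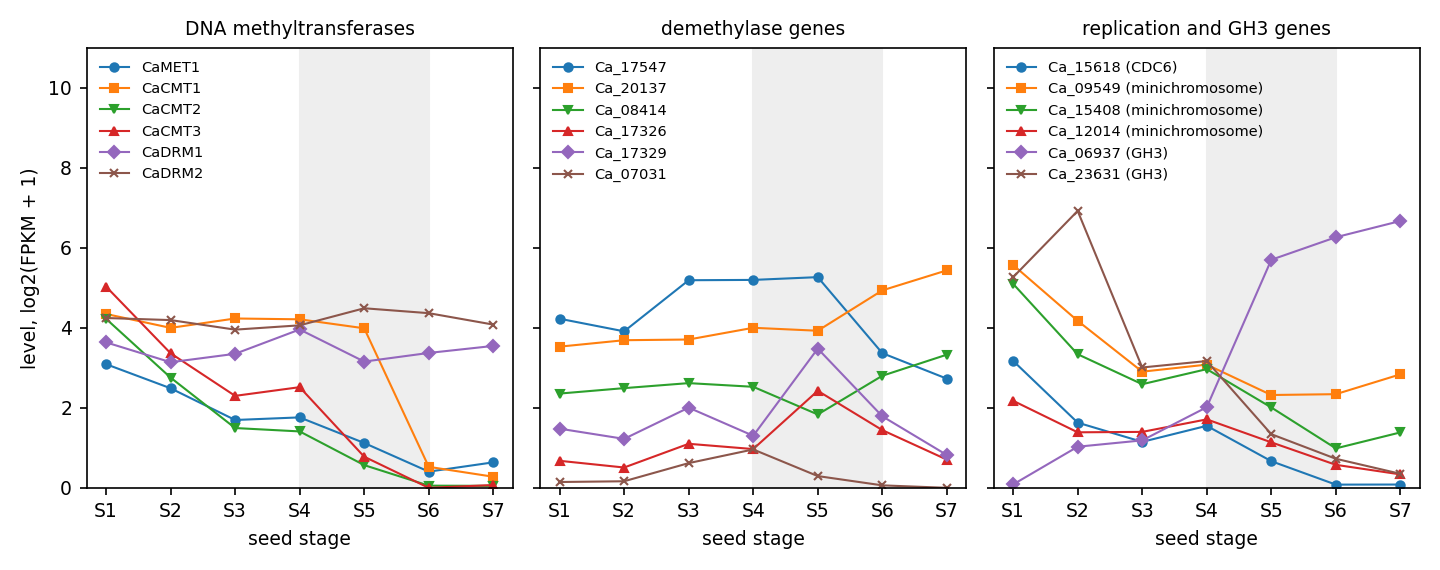
Level as log2(FPKM + 1) across the 7 seed stages (1 merged value each) for the 6 DNA methyltransferase genes, the 6 demethylase genes, and the replication and GH3 genes, with S4 to S6 shaded. CaCMT1 goes from 14.9 FPKM at S5 to 0.439 at S6, Ca_17547 from 37.5 to 9.31, and the GH3 genes cross, from 3.04 to 75.8 and from 7.99 to 0.655 FPKM between S4 and S6.

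The demethylase genes, whose products remove methylated cytosine from DNA, were mostly within 2-fold in the deposited values. Of the 6 genes, 5 met the minimum, of which Ca_17547 was at least 2-fold lower and the other 4 within 2-fold. Over all genes 32.4% were 2-fold lower and 36.6% within 2-fold. Relative to the shift of the median gene, Ca_17547 was likewise the 1 gene at least 2-fold lower under each of the 3 scalings. Ca_17547 had 35.5 FPKM at S3, 35.7 at S4, 37.5 at S5, 9.31 at S6 and 5.63 at S7, a change of -1.83. Ca_20137, summed over 2 loci, had 15.0 FPKM at S4, 14.2 at S5, 29.6 at S6 and 42.3 at S7, a change of 0.94 that was -0.59 with the same sum, and 0.74 to 0.88 relative to the shifts. At S4 the former was the more abundant, and at S6 the latter. Ca_17326 and Ca_17329 peaked at S5, at 4.37 and 10.2 FPKM, and had 0.958 and 1.46 FPKM at S4 and 1.72 and 2.45 at S6. Their changes of 0.47 and 0.49 were negative with the same sum (-0.40 and -0.54), and that of Ca_17329 also with the upper quartile (-0.0039). Relative to the shifts they were 0.62 to 0.93 and 0.59 to 0.79. Ca_08414, summed over 2 loci, had 4.76 and 5.97 FPKM at S4 and S6, a change of 0.28 that was negative under all 3 scalings and 0.28 to 0.29 relative to their shifts. With the same sum itself it was at least 2-fold lower (-1.05). Ca_07031 was below the minimum at both stages, at 0.945 and 0.0438 FPKM. Its change was -1.26 with the same sum and -1.07 with the upper quartile.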

How the data were processed

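Whole-seed and leaf RNA of Himchana 1 was sequenced from mRNA libraries. The authors used NGS QC Toolkit for read filtering, TopHat for mapping and Cufflinks for FPKM, and deposited 1 FPKM value per locus and stage that merges 3 replicates. How replicates were merged and libraries scaled is not given in the sources used here. Of 35234 loci, 26305 with 1 identifier were summed to 25111 genes (1168 over several loci), and 1661 loci joining identifiers and 7268 without one were left out. Depth is unknown: among 591 loci below 0.08 FPKM at both stages, at most 21 ratios lay within 2% of one value. Changes are log2 of the FPKM + 1 ratio (Python 3.11.15, pandas 2.3.3, numpy 2.4.6), which understates low genes, and the counting was tested on simulated data. No significance test was possible. A minimum of 1 FPKM in either stage and a 2-fold difference were used. Alternatives were other pseudocounts, minimums, scalings and treatments of loci, list members never classed as differentially expressed in their list, other stages, and another definition of an intermediate S5 level.

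Named are the genes the study's text names with an identifier, its 6 methyltransferase and 6 demethylase genes, the 3 largest increases and decreases in each of 4 process lists (10 FPKM or more at S4 or S6, above 0 at both) and the 2 largest of each over all genes (1 FPKM or more at both). Members, rules and lists were chosen with earlier results of these data known. Gene names, lists and annotations are the study's, and the cell growth list was made partly from Himchana 1 at S3 and S5.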

Additional observations from a re-analysis of the deposited data

Results flagged for a closer look

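Loci outside the gene comparison showed differences of the same kind. Of the 7268 loci without a gene identifier, 2372 were at 1 FPKM or more at S4 or S6, of which 878 (37%) were at least 2-fold higher at S6 and 802 (33.8%) at least 2-fold lower. Of these, 646 and 503 had the same direction at S7 against S3. The highest of these loci reached 4754 FPKM at S6. Of the 1661 loci that join several gene identifiers, 1566 met the minimum, of which 546 (34.9%) were higher and 381 (24.3%) lower, and 460 and 312 of these had the same direction at S7 against S3. What these loci are was not tested.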

How the results depend on the processing

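Of 138 counts and shares recomputed under 14 other settings, 99 stayed within 1.5 times (counts) or the counting interval (shares), and 39 moved. The counting interval is a binomial one that treats genes as independent draws. Genes of the same libraries are not, so for shares it is a yardstick and not an error. No paired analysis was possible because each stage holds 1 merged value, and for the same reason no replicate could be left out. Depth limits the low values by an unknown amount. Other pseudocounts, no minimum, genes with 1 locus only, added joined loci and any value beyond the nearer stage in place of 2-fold for S5 moved none, the last for the numbers of genes between the stages (2911 higher and 3315 lower).

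A minimum of 10 FPKM in either stage left 2537 lower genes (4011 higher), with 39 lower (33 higher) in the cell cycle, 109 (150) in the differentiation, 41 (24) in the grain filling and 30 (25) in the cell growth list. A minimum of 1 FPKM in both left 2212 (4038), and 48 (36), 90 (155), 34 (20) and 28 (27) in these lists and 27 (54) in the desiccation list. With these minimums 61.3% and 64.6% of the 2-fold different genes were higher, against 49% without them. The same sum gave 1546 higher and 8809 lower genes (14.9% higher). In the lists it gave 16 higher for cell cycle, 54 higher and 358 lower for differentiation, 13 higher for grain filling, 30 higher for desiccation and 6 higher for cell growth. The genes with the same direction in S7 against S3 became 86.5% of the higher and 80.6% of the lower. The same sum without the most abundant gene, Ca_28211, chosen after seeing the data, gave 1691 higher and 8555 lower genes. The median ratio gave 17 higher cell growth genes (36.7% higher over all genes). The upper quartile gave 2881 higher genes (30.8%), with 109 higher in differentiation and 16 in cell growth. With S2 in place of S3 the shares were 82.1% and 82.0%.

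Only members never classed as differentially expressed in their list left 2 higher (5.41%) and 10 lower (27%) of 37 for cell cycle. The counts were 10 (11.6%) and 19 (22.1%) of 86 for differentiation and 1 (7.14%) and 5 (35.7%) of 14 for grain filling. They were 2 (18.2%) and 5 (45.5%) of 11 for desiccation and 14 (27.5%) and 23 (45.1%) of 51 for cell growth. Over all genes the shares were 31% and 32.4%. This setting holds fewer genes, and the causes of the other differences were not tested.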
